A study of Mus musculus with 9 samples.

Results

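The 10 genes of meiotic recombination and crossover formation described here are Prdm9, Spo11, Mei1, Mei4, Dmc1, Psmc3ip, Mnd1, Msh4, Msh5 and Hfm1, measured in 3 groups of sorted mouse cells. They were taken by symbol, through the RefSeq accession that the array file gives for each probe. All 10 were found, among 32450 genes or identifiers on the arrays, and they were represented by 16 probes.

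Total RNA was measured on 9 arrays with 1 colour, 3 in each group. The first group was primordial germ cells (PGCs), the precursors of sperm and eggs, from the genital ridges of male embryos at E13.5, of the MCH x C57BL6/J background with the Oct4ΔPE-GFP transgene, sorted for GFP. The second was Max knockdown cells of the VV3 embryonic stem (ES) cell line, which is male, of 129SV background, and carries Venus under the promoter of Vasa (Ddx4). These had received Max siRNA, and Venus-positive cells were collected after 3 days. The third was control VV3 cells that had received AllStars siRNA, a non-silencing control, and were sorted after 3 days as live single cells without a Venus gate. Both ES groups were thus a single line in the same medium with serum replacement, serum and LIF. The siRNA and the gate differed together between them and cannot be told apart. PGCs differed from ES cells in strain, source and reporter as well as in cell type, and the sources used here do not give how many embryos were pooled.

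Meiotic recombination starts when SPO11 cuts both DNA strands at sites marked by PRDM9, and the cut ends are then resected and coated by the recombinase DMC1. DMC1, aided by the PSMC3IP (HOP2) and MND1 pair, invades the homologous chromosome, and the joined molecules are held by the MSH4 and MSH5 pair and matured into crossovers with the help of the helicase HFM1. In the mouse, germ cells of the fetal ovary enter meiosis, whereas those of the fetal testis stay out of it until after birth, so male E13.5 PGCs are premeiotic. MAX pairs with MYC at E-boxes and, with MGA, belongs to a Polycomb complex (PRC1.6) that also holds E2F6 and represses germ cell genes in ES cells.

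Levels are given as the log2 of an array's background-subtracted signal minus that array's 75th percentile, so 0 is the 75th percentile and each gene is compared only with itself. Differences come from a single limma fit of the 3 groups over 20443 genes, with Benjamini-Hochberg adjustment over all of them, and a gene is called higher or lower at an adjusted p under 0.05. Errors of differences are standard errors (SE) of that fit. All 10 genes passed the filter, which asks that all 3 arrays of some group be well above background, and 7 of the 10 were well above background on all 9 arrays. A gene can pass that filter through the group in which it is high.

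The labels were first set against the data. Max itself measured 0.59, 0.83 and 1.13 in Max knockdown cells, against 2.84, 2.74 and 2.85 in control cells, 3.89-fold lower (log2 difference -1.96, SE 0.14, adjusted p = 2.9e-05). Ddx4, whose promoter drives the Venus gate, was 2.64 higher in Max knockdown than in control cells on the log2 scale (SE 0.13, adjusted p = 6.7e-06), and it was 3.71 higher in PGCs than in control cells (SE 0.13, adjusted p = 6.3e-08). Pou5f1, a pluripotency factor also active in PGCs, differed by 0.04 between Max knockdown and control cells (adjusted p = 0.82) and by -0.11 between PGCs and control cells (adjusted p = 0.43). The summed linear level of 7 germ cell markers, in units of the 75th percentile, was 112 to 125 in PGCs, 19 to 21.8 in Max knockdown cells and 6.48 to 8.09 in control cells. That sum includes Ddx4, to which the Venus gate is tied. Of the 7 markers, 3 were called higher in Max knockdown than in control cells and 4 were not called. Correlation across genes was 0.991 to 0.995 between arrays of a group, 0.966 to 0.974 between Max knockdown and control arrays, and 0.866 to 0.882 between PGC and ES arrays. Between 58.2% and 67.6% of 43020 spots were well above background on an array, and the number of arrays limits the precision.

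Markers of other cells that a sort could carry over were also read. Of 7 Sertoli and supporting cell markers, 6 were well above background on all PGC arrays, with a summed level of 2.77 to 5.26 in PGCs, 1.88 to 2.66 in Max knockdown cells and 2.55 to 3.36 in control cells. Of the 7, 4 were called higher in PGCs than in control cells, 1 lower (Wt1) and 2 were not called. Over all genes tested, 43.2% were called higher and 32.4% lower in that comparison. Against Max knockdown cells 5 were higher in PGCs and 2 not called, where 44.9% of all genes were higher. Amh, which defines Sertoli cells, was well above background on no Max knockdown or control array. It was at least 5.77-fold higher in PGCs than in Max knockdown cells. The 7 steroidogenic and interstitial markers summed to 1.72 to 3.35 in PGCs, with 6 above background on all arrays, 0.567 to 0.826 in Max knockdown cells and 0.501 to 0.68 in control cells. Fibroblast markers, 4 in number and all above background throughout, summed to 0.892 to 1.11 in PGCs, 1.15 to 1.26 in Max knockdown cells and 3.52 to 5.5 in control cells. Endothelial and blood markers, 5 in number, summed to 2.25 to 3.13 in PGCs, 1.86 to 2.86 in Max knockdown cells and 1.64 to 2.32 in control cells. Cdh5 and Ptprc were well above background on no ES array, and Tie1 on no PGC array. Within that sum Hba-a1, a haemoglobin gene, was 14.8-fold higher in PGCs than in control cells (adjusted p = 9.8e-06), and Tie1, an endothelial receptor, was 7.16-fold higher in Max knockdown than in control cells (adjusted p = 0.00059) and at least 2.44-fold lower in PGCs than in control cells (adjusted p = 6.2e-05). The part of these cells in the differences below was not tested. In bulk RNA, fewer cells of a type and less RNA per cell cannot be told apart.

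In Max knockdown against control cells, 6 of the 10 genes were higher, Mei1, Hfm1, Spo11, Prdm9, Msh4 and Dmc1, and none was lower by limma's adjusted p, while Mei4, Msh5, Mnd1 and Psmc3ip were not called. At an unadjusted p under 0.05, 2 were lower, Mnd1 and Psmc3ip. Of the 20443 genes tested, 9939 passed that unadjusted threshold, counting both directions. Of the 6 called higher, Spo11 was well above background on 1 Max knockdown array and no control array. Over all genes tested in this comparison, 18.2% were called higher and 21.9% lower. The median log2 difference was 0.66 over the 10 genes and -0.07 over all genes tested. In PGCs against control cells, 7 of the 10 were higher, which 43.2% of all genes were, and 2 were lower, Dmc1 and Mei1, as 32.4% of all genes were. The median there was 0.88 over the 10 genes and 0.18 over all genes. Between PGCs and Max knockdown cells, 5 genes were higher in PGCs (Spo11, Hfm1, Mnd1, Msh4 and Msh5) and 2 were lower (Mei1 and Dmc1), shares near the 44.9% and 31.4% of all genes called higher and lower. The median was 0.40 over the 10 genes and 0.21 over all genes. Each group takes part in a pair of the comparisons, so these counts are not independent of each other. With spike-in transcripts as the scale, which moved the median of all genes by -0.95 in PGCs against control and by -0.97 in PGCs against Max knockdown cells, 2 of the 10 were called higher and 2 lower in each of these comparisons.

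**Figure D1:**
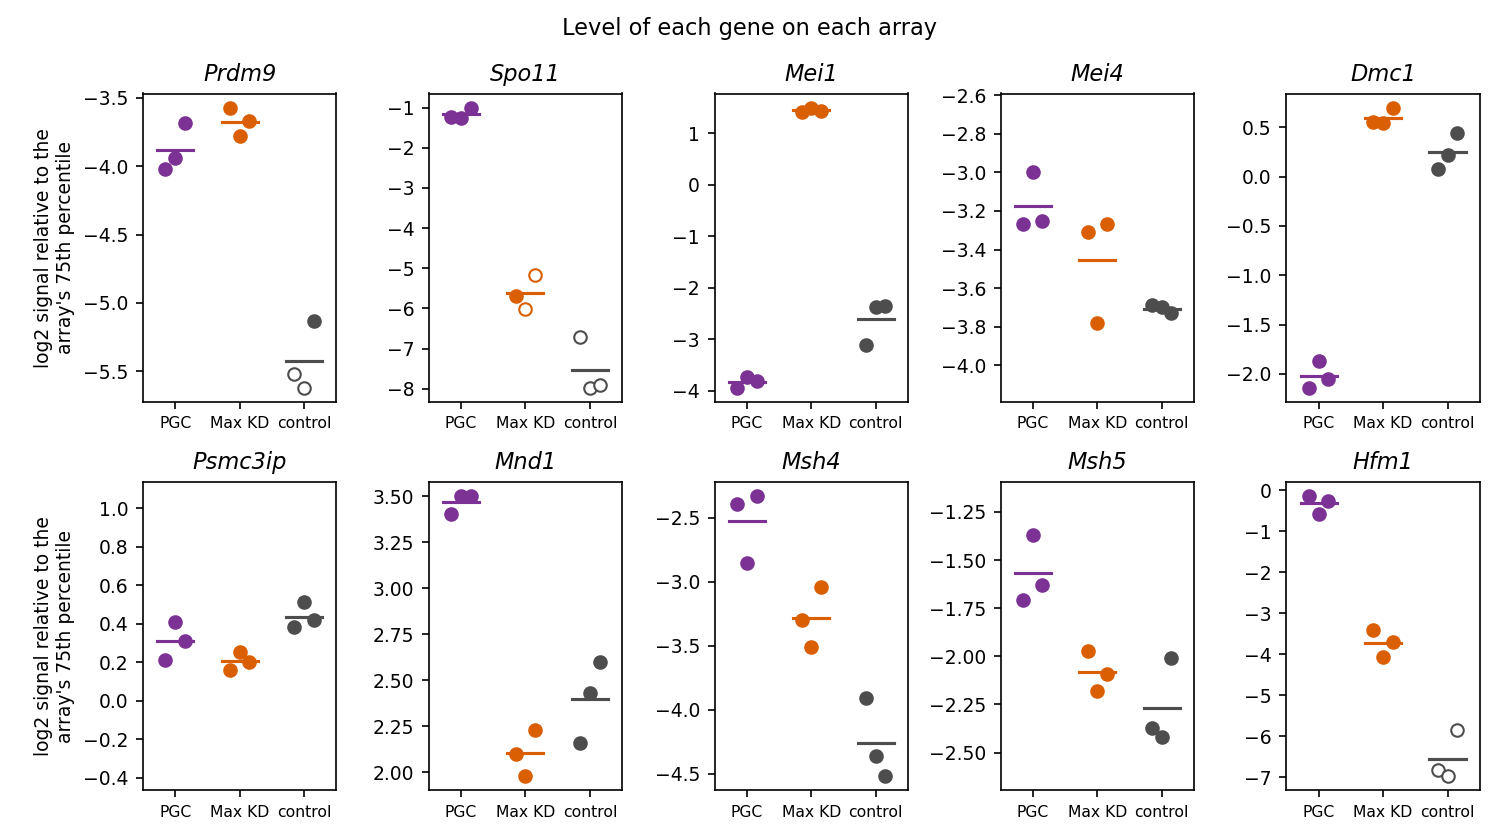
Level of each of the 10 genes on each of the 9 arrays, as log2 signal relative to the array's 75th percentile, with PGC, Max knockdown (KD) and control arrays side by side; each panel has its own axis. Points are arrays, filled where the probe was well above background and open where it was not, and lines are group means. Mei1 and Dmc1 are lowest in PGCs, whereas Spo11, Hfm1 and Msh4 step down from PGCs through Max knockdown to control cells.

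**Figure D2:**
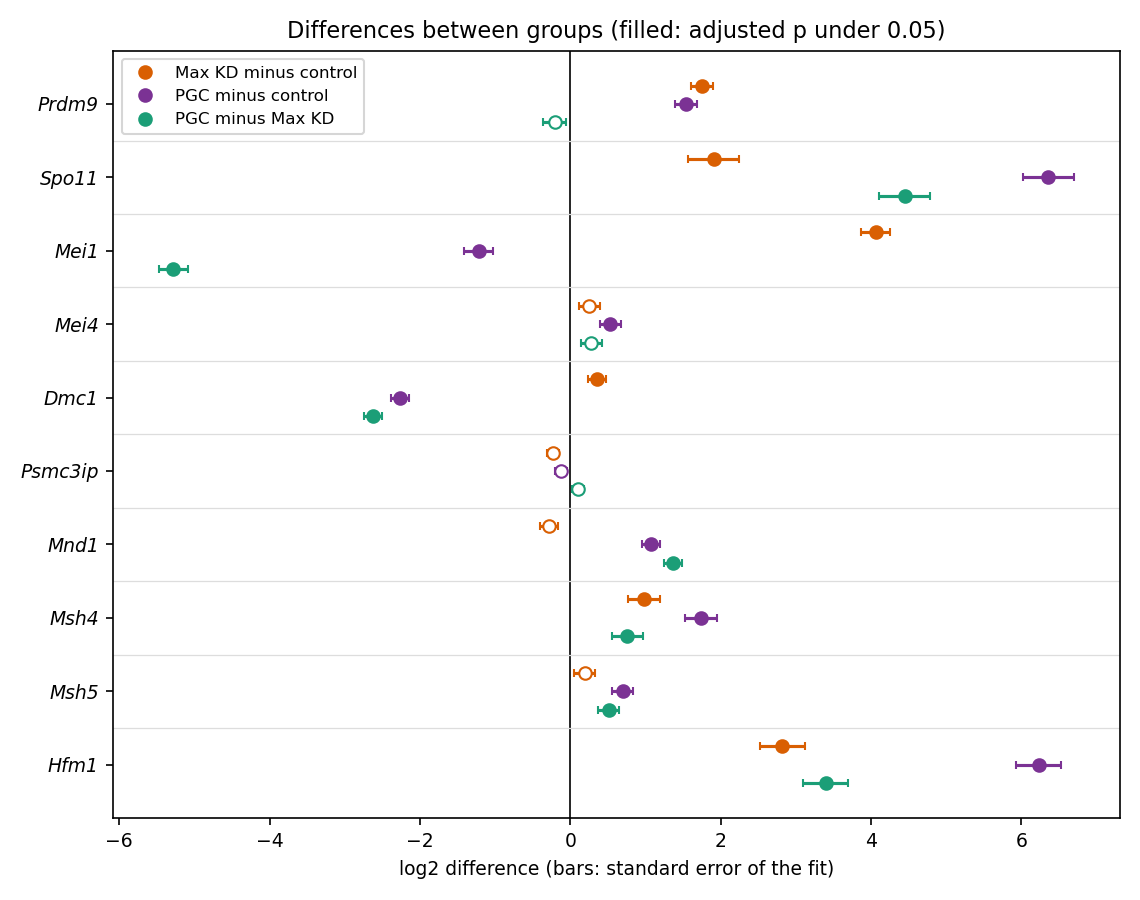
Log2 differences of the 10 genes in the 3 comparisons, as named in the key, with bars of 1 standard error of the fit. Filled points have an adjusted p under 0.05. Mei1 is 4.06 higher in Max knockdown than in control cells and its PGC value against Max knockdown cells is -5.28, while the 3 values of Psmc3ip all lie between -0.23 and 0.10.

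Promoter windows were read beside these differences, because MAX and E2F6 bind known DNA motifs and the genes split between those that rose and those that did not in Max knockdown cells. RefSeq windows of 250 bases before and 50 after the transcription start, on GRCm38.p6, were at hand for 9 of the 10 genes, with 2 windows for Prdm9 and none for Spo11. The windows of the 3 genes with the largest rises among the 9 (Mei1, Hfm1 and Prdm9) and of the 3 with the smallest differences (Msh5, Psmc3ip and Mei4) follow, 5′ to 3′ on the gene's strand, with the E2F core (GGCGGGA, or TCCCGCC on the other strand) in capitals. They lie at chr15:82082226-82082525 on the plus strand (Mei1), chr5:106925841-106926140 on the minus strand (Hfm1), chr17:15563282-15563581 and chr17:15564305-15564604 on the minus strand (Prdm9, windows 1 and 2), chr17:35046573-35046872 on the minus strand (Msh5), chr11:101095386-101095685 on the minus strand (Psmc3ip) and chr9:81863420-81863719 on the plus strand (Mei4).
Mei1: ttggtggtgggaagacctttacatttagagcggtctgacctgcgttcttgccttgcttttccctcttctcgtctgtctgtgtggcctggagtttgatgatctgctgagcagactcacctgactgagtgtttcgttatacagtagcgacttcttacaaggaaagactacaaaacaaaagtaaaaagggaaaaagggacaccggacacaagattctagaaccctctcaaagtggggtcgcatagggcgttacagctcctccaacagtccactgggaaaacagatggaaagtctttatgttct
Hfm1: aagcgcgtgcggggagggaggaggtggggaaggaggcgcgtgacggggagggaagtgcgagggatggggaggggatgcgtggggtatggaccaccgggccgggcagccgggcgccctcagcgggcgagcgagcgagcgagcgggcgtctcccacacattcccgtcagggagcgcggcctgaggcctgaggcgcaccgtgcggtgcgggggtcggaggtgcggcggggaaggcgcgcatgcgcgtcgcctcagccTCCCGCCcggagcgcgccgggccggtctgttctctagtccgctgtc
Prdm9 window 1: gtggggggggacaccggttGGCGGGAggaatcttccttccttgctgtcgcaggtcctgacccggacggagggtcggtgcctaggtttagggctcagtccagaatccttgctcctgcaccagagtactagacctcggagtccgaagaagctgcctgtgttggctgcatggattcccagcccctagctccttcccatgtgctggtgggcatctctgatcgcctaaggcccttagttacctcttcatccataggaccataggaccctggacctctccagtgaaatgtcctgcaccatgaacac
Prdm9 window 2: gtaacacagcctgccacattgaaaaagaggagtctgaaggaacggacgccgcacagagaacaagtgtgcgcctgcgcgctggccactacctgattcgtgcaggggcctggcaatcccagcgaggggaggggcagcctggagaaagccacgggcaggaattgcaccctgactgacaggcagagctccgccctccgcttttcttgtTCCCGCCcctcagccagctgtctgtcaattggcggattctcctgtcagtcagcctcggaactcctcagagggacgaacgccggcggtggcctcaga
Msh5: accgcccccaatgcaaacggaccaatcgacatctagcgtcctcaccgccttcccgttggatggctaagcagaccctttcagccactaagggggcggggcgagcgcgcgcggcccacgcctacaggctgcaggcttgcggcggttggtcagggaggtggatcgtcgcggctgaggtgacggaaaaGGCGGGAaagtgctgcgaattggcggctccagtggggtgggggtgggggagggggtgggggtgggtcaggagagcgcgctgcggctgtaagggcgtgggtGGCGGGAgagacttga
Psmc3ip: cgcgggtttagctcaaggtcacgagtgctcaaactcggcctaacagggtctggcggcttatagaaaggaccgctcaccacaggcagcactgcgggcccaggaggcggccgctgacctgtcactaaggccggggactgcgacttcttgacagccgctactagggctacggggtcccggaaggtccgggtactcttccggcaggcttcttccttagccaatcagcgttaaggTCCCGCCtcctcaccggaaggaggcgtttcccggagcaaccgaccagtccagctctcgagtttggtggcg
Mei4: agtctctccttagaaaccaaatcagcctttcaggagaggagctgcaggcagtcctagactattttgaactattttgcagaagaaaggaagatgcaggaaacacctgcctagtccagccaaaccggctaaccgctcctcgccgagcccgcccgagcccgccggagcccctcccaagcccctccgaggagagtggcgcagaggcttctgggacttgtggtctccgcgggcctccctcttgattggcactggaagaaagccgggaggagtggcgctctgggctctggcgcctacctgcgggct
Of the 10 windows of these genes, 5 held the E2F core, against 11.3% of 32851 RefSeq promoter windows of the same length. It stands once in the Hfm1 window, just after the start, once before the start in each Prdm9 window and in the Psmc3ip window, and at 2 places in the Msh5 window. None was found in the windows of Mei1, Mei4, Dmc1, Msh4 or Mnd1. Genes that rose (Hfm1, Prdm9) and genes that were not called (Msh5, Psmc3ip) in Max knockdown cells both carry it, and Mei1, with the largest rise, does not. The E-box CACGTG, which reads the same on both strands and does not overlap the E2F core, was in none of the 10 windows, against 7.15% of all windows. These are matches of letters in a fixed window, not binding sites.

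Prdm9 encodes the zinc finger histone H3 methyltransferase that places recombination sites in the mouse. It measured -4.02, -3.94 and -3.68 in PGCs, -3.57, -3.78 and -3.67 in Max knockdown cells, and -5.52, -5.62 and -5.13 in control cells, of which the -5.13 array was the only one well above background. All PGC and Max knockdown arrays lay above all control arrays and overlapped each other. Prdm9 was higher in Max knockdown than in control cells (fitted log2 difference 1.75, SE 0.15, adjusted p = 7.4e-05) and higher in PGCs than in control cells (1.54, SE 0.15, adjusted p = 1.8e-05). These sizes rest on 1 of 3 control arrays above background, and with normexp background correction they were 0.46 and 0.38. Between PGCs and Max knockdown cells the difference was -0.21 (95% interval -0.54 to 0.13, adjusted p = 0.23). The other Prdm9 probe gave 0.78 in Max knockdown against control cells (SE 0.24, adjusted p = 0.033), 1.09 in PGCs against control (SE 0.24, adjusted p = 0.0031), and 0.31 in PGCs against Max knockdown cells (SE 0.24, adjusted p = 0.28). Under spike-in scaling the difference between PGCs and control cells was 0.59 (adjusted p = 0.37, with 3.4e-06 to 0.37 over its alternatives).

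Spo11, the topoisomerase-like enzyme that makes the breaks, was well above background on all PGC arrays and near the limit of detection in ES cells. Its levels were -1.24, -1.27 and -1.0 in PGCs, against -5.70, -6.01 and -5.16 in Max knockdown cells and -6.71, -7.97 and -7.91 in control cells. Only the -5.70 array among the Max knockdown arrays, and none of the control arrays, was well above background. The groups did not overlap. Spo11 was at least 24.4-fold higher in PGCs than in control cells (adjusted p = 5.1e-07) and higher in PGCs than in Max knockdown cells (adjusted p = 4.5e-06). Against Max knockdown cells the fitted log2 difference of 4.45 (SE 0.34) rests on 1 Max knockdown array above background. It was 2.14 with normexp background correction, another way of removing background, which here also adds an offset of 50 to each signal. Spo11 was also called higher in Max knockdown than in control cells (fitted log2 difference 1.91, SE 0.34, adjusted p = 0.0027). With 1 of 6 arrays above background there, the bound is only 1.11-fold and rests on that array. The size of this difference is not measured. "At least" marks a bound against the lowest signal well above background on each dim array, or against the dim probe's own signal where that was higher. Such a bound holds for this processing only, and with normexp correction the log2 difference of Spo11 between PGCs and control cells was 2.38.

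Mei1, which is needed for break formation in mouse meiosis, had the largest of the 10 differences between Max knockdown and control cells. It measured 1.41, 1.5 and 1.44 in Max knockdown cells, against -3.11, -2.37 and -2.35 in control cells, 16.7-fold higher (log2 difference 4.06, SE 0.19, adjusted p = 4.8e-06). PGCs had -3.94, -3.74 and -3.82, below every control array. The PGC level was 2.33-fold lower than in control cells (log2 difference -1.22, SE 0.19, adjusted p = 0.00038) and 38.9-fold lower than in Max knockdown cells (-5.28, SE 0.19, adjusted p = 6.8e-08). All 9 arrays were well above background for this gene. The fall in PGCs against control cells was -0.55 with normexp background correction and -2.18 with spike-in scaling, both called.

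Mei4, a partner of REC114 in the complex that switches on SPO11, varied little. Levels were -3.27, -3.00 and -3.25 in PGCs, -3.31, -3.78 and -3.27 in Max knockdown cells, and -3.69, -3.70 and -3.73 in control cells. A single Max knockdown array, replicate 2, lay among the control arrays and the other two lay close to the PGC arrays. The difference between Max knockdown and control cells was 0.25 (95% interval -0.07 to 0.58, adjusted p = 0.19). Without Max knockdown replicate 2 it was 0.42 (adjusted p = 0.023, with 0.023 to 1 over its alternatives). PGCs were 1.45-fold higher than control cells (log2 difference 0.53, SE 0.14, adjusted p = 0.0083), a difference that turned to -0.42 with spike-in scaling. The difference between PGCs and Max knockdown cells was 0.28 (95% interval -0.05 to 0.61, adjusted p = 0.11), and it was called with quantile normalization (0.40, adjusted p = 0.028, with 0.028 to 0.36 over its alternatives). A second Mei4 probe was well above background on 1 of 9 arrays, a PGC array, and was not tested.

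Dmc1 encodes the meiosis-specific recombinase. It was lowest in PGCs, with levels of -2.14, -1.87 and -2.05, against 0.55, 0.54 and 0.70 in Max knockdown cells and 0.08, 0.22 and 0.44 in control cells. PGC arrays lay far below all ES arrays, and every Max knockdown array lay above every control array by a small margin. The PGC level was 4.82-fold lower than in control cells (log2 difference -2.27, SE 0.12, adjusted p = 4.2e-07) and 6.15-fold lower than in Max knockdown cells (-2.62, SE 0.12, adjusted p = 2.1e-07). In Max knockdown cells Dmc1 was 1.28-fold higher than in control cells (0.35, SE 0.12, adjusted p = 0.042). That call was lost when any 1 of 5 of the 6 ES arrays was left out (all except control replicate 3), with differences of 0.27 to 0.45 over the 6 and an adjusted p of 0.0063 to 1 over all alternatives. The other Dmc1 probes gave 0.52 (SE 0.11, adjusted p = 0.0063) and 0.39 (SE 0.12, adjusted p = 0.03) in this comparison, and -2.47 and -2.39 in PGCs against control cells.

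Psmc3ip and Mnd1 encode the pair that helps DMC1 invade the homologous chromosome. Psmc3ip measured 0.21, 0.41 and 0.31 in PGCs, 0.16, 0.25 and 0.20 in Max knockdown cells, and 0.38, 0.51 and 0.42 in control cells. Every Max knockdown array lay below every control array, by a margin that did not pass the test (log2 difference -0.23, 95% interval -0.42 to -0.04, adjusted p = 0.059), and it passed in 3 settings, as a filter on all 9 arrays (adjusted p = 0.048), a variance trend (0.048) and a slide term (0.0496), with 0.048 to 1 over its alternatives. PGCs differed from control cells by -0.13 (95% interval -0.32 to 0.07, adjusted p = 0.2) and from Max knockdown cells by 0.10 (95% interval -0.09 to 0.29, adjusted p = 0.29).

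Mnd1 had 3.40, 3.50 and 3.50 in PGCs, 2.10, 1.98 and 2.23 in Max knockdown cells, and 2.16, 2.43 and 2.60 in control cells. PGC arrays stood above all ES arrays, which overlapped between Max knockdown and control. Mnd1 was 2.10-fold higher in PGCs than in control cells (log2 difference 1.07, SE 0.12, adjusted p = 5.3e-05) and 2.56-fold higher than in Max knockdown cells (1.36, SE 0.12, adjusted p = 1.2e-05). With spike-in scaling these were 0.11 and 0.39, neither called. Max knockdown and control cells differed by -0.29 (95% interval -0.57 to -0.01, adjusted p = 0.091), and without control replicate 1 by -0.41 (adjusted p = 0.025, with 0.025 to 1 over its alternatives). A second Mnd1 probe gave -0.25, 1.22 and 1.48 in the comparisons of Max knockdown with control, PGCs with control and PGCs with Max knockdown cells.

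Msh4 encodes the meiosis-specific partner of MSH5. Its levels were -2.39, -2.85 and -2.33 in PGCs, -3.30, -3.51 and -3.04 in Max knockdown cells, and -3.91, -4.36 and -4.52 in control cells, so the groups followed each other without overlap. Msh4 was 1.98-fold higher in Max knockdown than in control cells (log2 difference 0.98, SE 0.21, adjusted p = 0.0057), 3.35-fold higher in PGCs than in control cells (1.74, SE 0.21, adjusted p = 6.3e-05) and 1.69-fold higher in PGCs than in Max knockdown cells (0.76, SE 0.21, adjusted p = 0.0083). A second Msh4 probe gave 0.73, 3.08 and 2.35 in the same comparisons, in the same direction but with PGCs further from both ES groups. With spike-in scaling none of the 3 differences was called, and the difference between PGCs and Max knockdown cells turned to -0.21.

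Msh5, the other gene of that pair, was not called in Max knockdown cells. Levels were -1.71, -1.37 and -1.63 in PGCs, -1.97, -2.18 and -2.09 in Max knockdown cells, and -2.37, -2.42 and -2.01 in control cells. One control array, replicate 3, lay among the Max knockdown arrays. The difference between Max knockdown and control cells was 0.19 (95% interval -0.13 to 0.50, adjusted p = 0.32). PGCs were 1.62-fold higher than control cells (log2 difference 0.70, SE 0.14, adjusted p = 0.0016) and 1.42-fold higher than Max knockdown cells (0.51, SE 0.14, adjusted p = 0.0084), differences that turned to -0.26 and -0.46 with spike-in scaling.

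Hfm1 encodes the helicase related to yeast Mer3 that promotes crossovers. It measured -0.14, -0.57 and -0.25 in PGCs, -3.40, -4.07 and -3.71 in Max knockdown cells, and -6.83, -6.97 and -5.85 in control cells, where no array was well above background. As for Msh4, the groups stepped down without overlap, over a far wider range. Hfm1 was at least 4.07-fold higher in Max knockdown than in control cells (adjusted p = 0.00021) and at least 43.1-fold higher in PGCs than in control cells (adjusted p = 2.7e-07). These bounds hold for this processing only, and with normexp the log2 differences were 0.65 and 2.91 in these comparisons, both called. PGCs exceeded Max knockdown cells 10.6-fold (log2 difference 3.40, SE 0.30, adjusted p = 1e-05), and the log2 difference was 2.26 with normexp and 2.43 with spike-in scaling, both called.

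The size of the differences of the dimmer genes moved with the processing. The normexp setting also adds an offset of 50 to each signal, which by itself makes log2 differences of dim probes smaller. The effects of the offset and of the background correction were not separated. With normexp correction of the median signals, the calls of all 10 genes stayed the same in the 3 comparisons, but in Max knockdown against control cells the difference was 0.65 for Hfm1, 0.46 for Prdm9, 0.35 for Msh4 and 0.25 for Spo11, against 3.24 for Mei1. In PGCs against control cells it was 2.91 for Hfm1, 2.38 for Spo11 and 0.38 for Prdm9, and in PGCs against Max knockdown cells -3.79 for Mei1 and -2.03 for Dmc1.

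**Figure D3:**
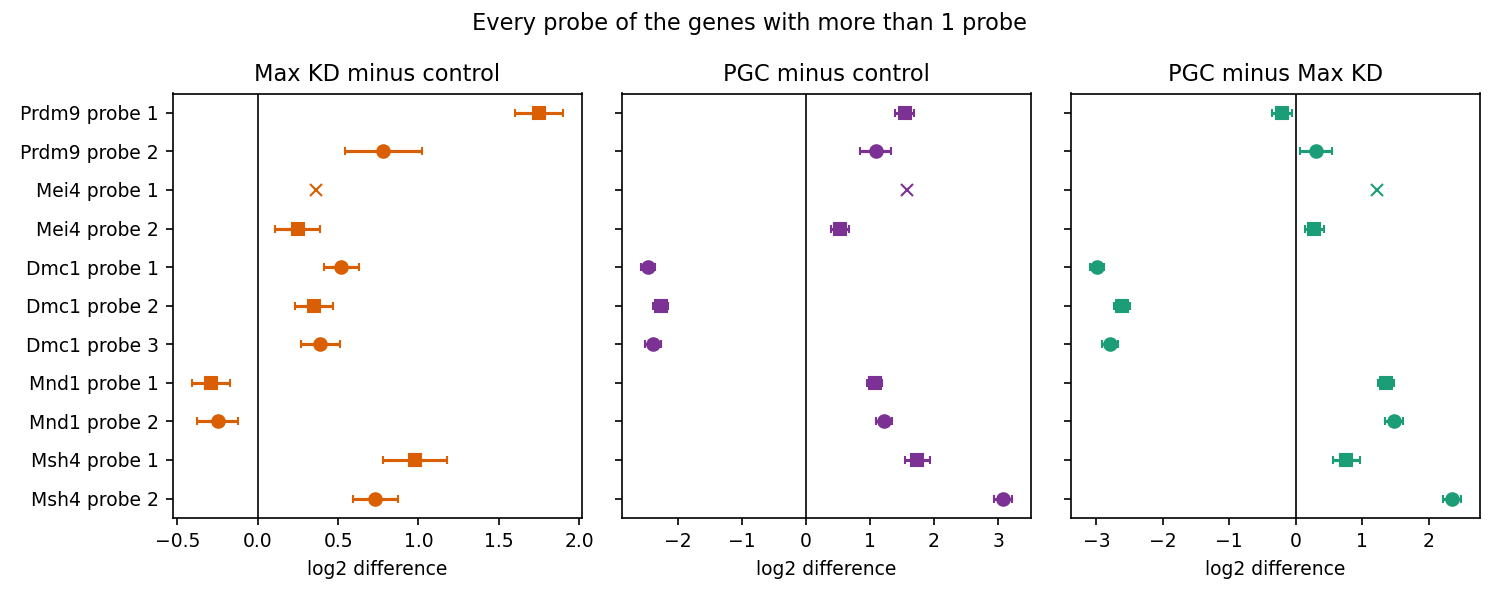
Log2 differences by probe for the 5 genes with more than 1 probe, in the 3 comparisons, with bars of 1 standard error. Squares are the probe used for the gene, circles the other probes tested, and crosses the Mei4 probe that was too dim to test. The probes of a gene point the same way in Max knockdown and PGCs against control cells, and the Prdm9 probes lie on opposite sides of 0 in PGCs against Max knockdown cells, neither called.

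Max knockdown and control arrays shared slides, which were also scan days. Slide 1 held replicates 1 and 2 of both groups, and slide 2 held Max knockdown replicate 4 and control replicate 3. The differences on slides 1 and 2 were 4.20 and 3.78 for Mei1, 3.17 and 2.14 for Hfm1, 1.48 and 2.75 for Spo11, 1.89 and 1.45 for Prdm9, 0.73 and 1.49 for Msh4, and 0.40 and 0.26 for Dmc1. For Mei1, Msh4 and Dmc1, measured on all arrays, Max knockdown was thus higher on each slide. The slide values of Hfm1, Spo11 and Prdm9 are set against control arrays of which most or all were not well above background. For Spo11 the Max knockdown array of slide 2 was not well above it either, so the sizes for these genes are not measured. Of the 4 genes not called, Mei4 gave 0.15 and 0.46, Mnd1 -0.25 and -0.36, Psmc3ip -0.23 and -0.21, and Msh5 0.32 and -0.08, which differ in sign. PGC arrays lay on slides of their own, so slide and cell type cannot be told apart in comparisons with PGCs.

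Other genes of the pathway were read from lists written for this purpose. Counts in these lists stand beside the shares of all genes tested. In Max knockdown against control cells 18.2% were called higher and 21.9% lower. In PGCs the shares were 43.2% and 32.4% against control, and 44.9% and 31.4% against Max knockdown cells. On the spike-in scale each PGC difference in these lists moves by -0.95 against control and by -0.97 against Max knockdown cells, so rises smaller than that turn negative there. Of 3 further genes of break formation on the arrays, all 3 were higher in Max knockdown than in control cells. Zcwpw1, a reader of the marks PRDM9 writes, differed by 1.52 (SE 0.16, adjusted p = 0.00019), Iho1 by 0.99 (SE 0.20, adjusted p = 0.0043) and Rec114 by 0.82 (SE 0.08, adjusted p = 0.00018). In PGCs against control cells, Zcwpw1 was 3.36 higher (adjusted p = 2.3e-07), whereas Iho1 and Rec114, partners of MEI4, were lower, by -1.23 (adjusted p = 0.00042) and -0.24 (adjusted p = 0.026). The same 2 genes were lower in PGCs than in Max knockdown cells, by -2.22 for Iho1 and -1.06 for Rec114, and Zcwpw1 was 1.84 higher. Ankrd31, Top6bl and Zcwpw2 had no matched probe.

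Meiotic cofactors of strand exchange numbered 9. In Max knockdown against control cells 7 were higher and none lower, with a median of 0.90. Tex15, which is needed for loading recombinases in mouse meiosis, was 3.30 higher (SE 0.17, adjusted p = 6.9e-06), and Spata22, a partner of MEIOB on single-stranded DNA, was at least 8.75-fold higher (adjusted p = 7e-05). Against control cells, 7 of the 9 were called higher in PGCs, with Tex15 at 3.45 (adjusted p = 2.9e-07) and Mcmdc2 at 1.94 (adjusted p = 7.4e-07). The 7 include Spata22, which was well above background on no PGC or control array and so has no measured direction there. Between PGCs and Max knockdown cells, 3 were higher, 3 lower and 3 not called. Mcmdc2 was 1.62 higher in PGCs (adjusted p = 2.3e-06), and Rad51ap2 was at least 5.84-fold lower in PGCs (adjusted p = 1.3e-05).

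Crossover designation and maturation was represented by 7 genes besides the 10. In Max knockdown against control cells 3 were higher and 1 lower, led by Tex11 (2.91, SE 0.10, adjusted p = 1.3e-06), which works with MSH4 sites, and Ccnb1ip1 (HEI10, 2.03, SE 0.12, adjusted p = 1.5e-05). Against control cells, 3 of the 7 were higher in PGCs and 3 lower, where 43.2% and 32.4% of all genes were. Tex11 was at 2.86 (adjusted p = 6e-08) and Prr19 at 3.05 (adjusted p = 6.4e-07). In PGCs against Max knockdown cells 1 was called higher, Cntd1 (fitted log2 difference 1.29, adjusted p = 3.6e-05). It was well above background on 1 PGC array and no Max knockdown array, so the size of that difference is not measured. In the same comparison 3 were lower, among them Mlh3 (-0.84, adjusted p = 6.7e-05), whose product takes part in resolving crossovers. Shoc1, Spo16, Rnf212 and Rnf212b had no matched probe.

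Genes of the meiotic chromosome axis and of meiotic entry had the highest share of rises in Max knockdown against control cells among these lists apart from the 3 break formation genes. Of 15 tested, 13 were higher and none lower, with a median of 1.80. Sycp3, an axis component, was 3.62 higher (SE 0.14, adjusted p = 1.8e-06) and Syce1, of the synaptonemal complex, 2.89 higher (SE 0.10, adjusted p = 1.2e-06). Of the 15, PGCs had 10 higher and 2 lower than in control cells. The cohesin subunit Stag3, well above background on no ES array, was at least 619-fold higher in PGCs than in control cells (adjusted p = 3.9e-09) and at least 481-fold higher than in Max knockdown cells (adjusted p = 5.8e-09). Between PGCs and Max knockdown cells 3 were higher and 8 lower, with Meioc, needed to sustain meiotic prophase, lower in PGCs (log2 difference -2.87, SE 0.09, adjusted p = 4.3e-08). Rad21l had no matched probe.

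Recombination genes that also act in somatic cells were read in the same way. The first counts are for Max knockdown against control cells, where 18.2% of all genes were called higher and 21.9% lower. Of 18 genes of general homologous recombination, 2 were higher and 2 lower in Max knockdown cells, with Brca2 at 0.59 (adjusted p = 0.0012) and Rad51d at -0.80 (adjusted p = 0.00051). Of 7 genes of break sensing and resection, 2 were higher and 3 lower, with Atm at 0.86 (adjusted p = 0.00013) and Dna2 at -0.63 (adjusted p = 0.0019). Of 10 genes that resolve or dissolve joint molecules, 3 were higher and 1 lower, with Gen1 at 0.85 (adjusted p = 0.00037) and Blm at -0.26 (adjusted p = 0.033). Over all genes, 43.2% were called higher and 32.4% lower in PGCs against control cells. For PGCs against control cells the counts were 7 higher and 5 lower of 18, 2 higher and 1 lower of 7, and 7 higher and 1 lower of 10. Rpa2 was 1.49 higher there (adjusted p = 2.5e-06), Rad50 1.20 higher (adjusted p = 2e-05) and Slx4 1.26 higher (adjusted p = 3.9e-06). Rad51d was lower in PGCs than in control cells (-0.94, adjusted p = 3.6e-05). Rad51c had no matched probe.

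Msh3 and Msh6, relatives of Msh4 and Msh5 that act in mismatch repair, were also measured. Msh3 differed by -0.13 between Max knockdown and control cells (adjusted p = 0.26) and Msh6 by -0.17 (adjusted p = 0.13), neither called. Msh3 was 0.96 higher in PGCs than in control cells (adjusted p = 9.3e-06), and Msh6 differed by 0.13 (adjusted p = 0.17). Both were higher in PGCs than in Max knockdown cells, by 1.09 for Msh3 (adjusted p = 4.5e-06) and 0.30 for Msh6 (adjusted p = 0.0083).

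**Figure D4:**
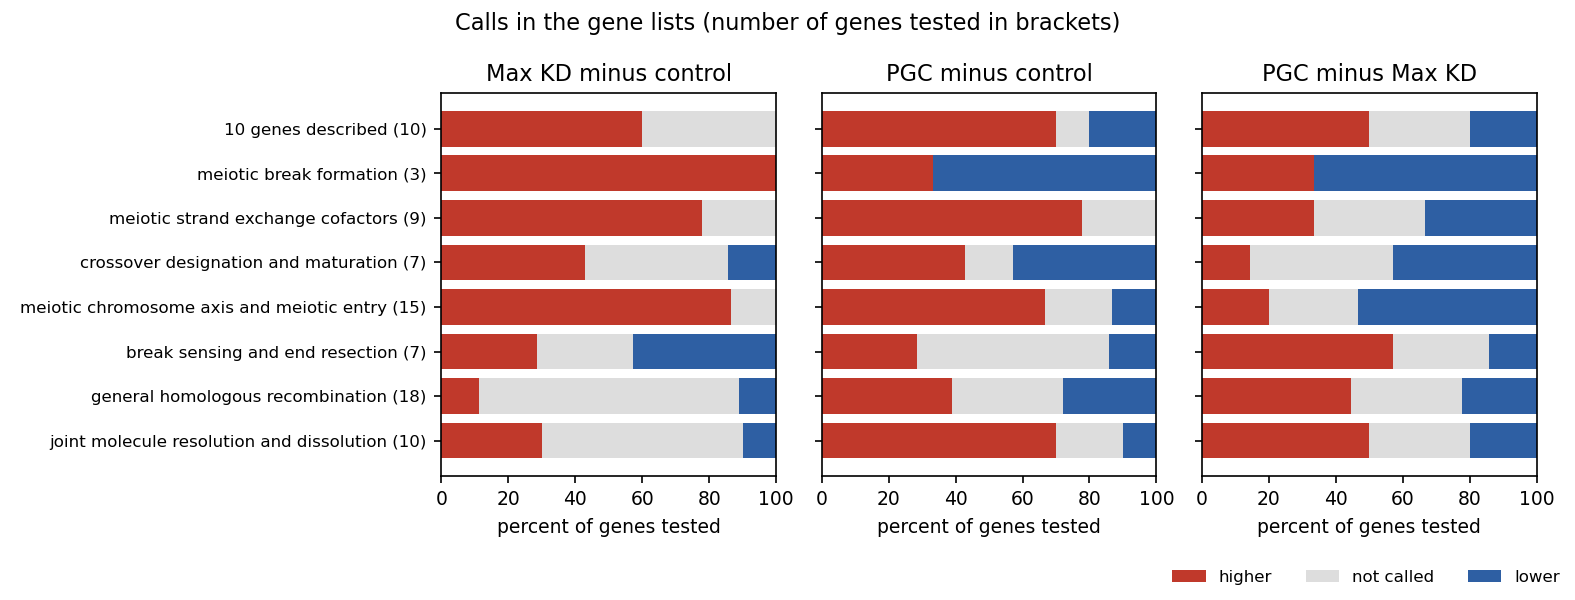
Share of the tested genes in each list that was called higher, not called or lower, in percent, for the 3 comparisons, with the number tested in brackets. In Max knockdown against control cells none of the break formation, strand exchange and axis genes is called lower, where 21.9% of all genes were. In PGCs against Max knockdown cells each bar drawn holds genes called in both directions, where 44.9% of all genes were called higher and 31.4% lower.

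For each of the 10 genes, the gene with the most similar pattern over the 9 arrays was found among 14434 others, by the root mean square difference after each was centred on its own mean. Hfm1 was nearest to Tex19.2 (0.21, for an Hfm1 range of 6.83 on the log2 scale) and Spo11 to Rhox2c (0.39, range 6.96). Prdm9 was nearest to Ccnb1ip1, named above as a crossover gene (0.17, range 2.05), and Msh4 to Dmrtc1b (0.11, range 2.19). Mei1 had the most distant neighbour, Gm4567 (0.45, range 5.44), and Dmc1 was nearest to Glb1 (0.11, range 2.84). For the flatter genes the nearest were Sharpin for Msh5 (0.08), Nfyc for Mei4 (0.10), B4galt7 for Mnd1 (0.06) and Uqcrc1 for Psmc3ip (0.05). Among the 10 themselves, Spo11 and Hfm1 were each other's nearest (0.73), as were Mei4 and Msh5 (0.18) and Msh4 and Prdm9 (0.51).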

How the data were processed

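Total RNA of 9 samples was labelled with Cy3 from 100 ng and hybridised to Agilent 1-colour arrays with spike-in transcripts, per the labels' protocols. The deposited scanner files hold spot intensity from Agilent Feature Extraction 10.7.3.1, with background already subtracted and detrended by the authors' extraction, per the file headers. The deposited value table holds log2 values, per their match to the scanner values centred by probe (r 0.99994 to 0.99999, medians of columns from -0.12 to 0.39), and its scale and centring are otherwise not stated. Groups were taken from the sample titles, and the study's design text calls the replicates biological.

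From the processed intensity, the mean over a probe's spots was put on the log2 scale, less the array's 75th percentile. Control spots and 65 probes with outlier flags were left out, and no spot was saturated. Of 39364 probes, 26012 were named by RefSeq accession through a GRCm38.p6 gene table (the array header gives mm9, so no coordinates were taken from it), and 13352 kept the file's name. The probe with the highest mean stood for a gene. Genes that stood well above background on all 3 arrays of some group were tested in R 4.3.3 with limma 3.58.1 (lmFit, eBayes), in 1 fit of 3 groups, with Benjamini-Hochberg adjustment and a threshold of 0.05. For 1 gene, exact permutation of 3 against 3 arrays cannot give a p under 0.1. The fit was tested on simulated data.

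The genes and lists were chosen with earlier results of these data known. Named were the 10 genes, Max, Ddx4, Pou5f1, Msh3, Msh6, and from the lists the 2 members with the smallest p per comparison, not all of them printed. Some genes that the rule names are not reported here. Iho1 was named because all 3 members of its list are. Alternatives were quantile, spike-in and normexp (offset 50, on median signals) processing, other filters and probe rules, a variance trend, slide and replicate blocks, the deposited table, separate fits of each pair of groups, and leaving out each array.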

Additional observations from a re-analysis of the deposited data

How the results depend on the processing

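Of 546 recomputed differences of the 10 genes over all alternatives, 515 kept their direction and their side of the threshold, 15 lost the call, 8 gained one and 8 changed sign. Scaling on the spike-in transcripts changed most. It gave 1006 genes called in Max knockdown against control cells (8205 with the 75th percentile), 8623 in PGCs against control (15451) and 8278 in PGCs against Max knockdown cells (15593). Of these, 718 were higher and 288 lower (3720 and 4485 with the 75th percentile), 1161 and 7462 (8837 and 6614), and 1001 and 7277 (9170 and 6423), and of the 10 genes 4, 2 and 2 were higher. Signs turned for Mei4 (-0.42) and Msh5 (-0.26) in PGCs against control cells and, in PGCs against Max knockdown cells, for Msh4 (-0.21), Msh5 (-0.46), Mei4 (-0.69) and Psmc3ip (-0.87), the last pair called under neither scale. Prdm9 in PGCs against Max knockdown cells turned to 0.05 with the mean of its probes and to 0.31 with its other probe, neither called. The log2 ratio of the 75th percentile to the spike-ins was -1.39, -2.35 and -2.17 on PGC arrays, -0.77, -0.59 and -1.65 on Max knockdown arrays, and -0.60, -0.63 and -1.83 on control arrays. The cause was not tested.

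A filter on all 9 arrays leaves 7 of the 10 genes, of which 3 were higher and 1 (Psmc3ip) lower in Max knockdown against control cells, 4 were higher in PGCs against control cells and 3 in PGCs against Max knockdown cells. With a variance trend 1 gene (Psmc3ip) was lower in Max knockdown cells, with slide as a block 2 (Mnd1 and Psmc3ip), and without each array in turn 0 to 1. Slide as a random block (correlation 0.29) changed no call of the 10 genes in comparisons with PGCs. Dmc1 lost its call in Max knockdown cells with no filter on dim genes (0.35, adjusted p = 0.1) and in a fit of only those groups (adjusted p = 0.052).

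Replicate numbers are shared by Max knockdown and control arrays in 2 pairs, whose deviations correlated at 0.37 and 0.39 across genes, and pairs with PGCs at -0.03 to 0.02. Both pairs also lie on slide 1, and with 2 pairs the number was not taken to pair the samples. With the replicate block, 6098, 15327 and 14724 genes were called in Max knockdown against control, PGCs against control and PGCs against Max knockdown cells. Under that block Dmc1 was not called in Max knockdown cells (0.34, adjusted p = 0.12), Msh5 was not called in PGCs against Max knockdown cells (0.45, adjusted p = 0.071), and Prdm9 was (-0.33, adjusted p = 0.049). Genes near background limit these arrays: against control cells Hfm1 has only bounds, and Spo11 has a bound in PGCs. In Max knockdown cells the bound of Spo11 is only 1.11-fold and rests on 1 array above background.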
